A study of Mus musculus with 16 samples.

Results

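The 10 genes described here encode Krüppel-like factors (Klf2, Klf3, Klf4, Klf6, Klf7, Klf9, Klf10, Klf13, Klf15 and Klf16), found by their exact symbols among the 24060 genes listed for each of 16 RNA-seq libraries from mouse somatosensory cortex. All mice were C57BL/6J animals of 3 months carrying Aldh1l1CreERT2 and RiboTag, and all received tamoxifen at 2 months, so that Cre driven from the astrocyte gene Aldh1l1 switched on an HA-tagged ribosomal protein. Stressed mice swam for 20 min and rested for 90 min in the home cage, whereas naïve mice stayed in the home cage. From the cleared lysate, RNA of all cell types was taken as INPUT, and RNA on tagged ribosomes was immunoprecipitated as IP. Naïve and stressed mice each gave 4 IP and 4 INPUT libraries, which makes 4 groups.

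Krüppel-like factors are DNA-binding proteins with zinc fingers at the C-terminus that recognise GC boxes and CACCC elements, the same sites that the related Sp factors bind. Their N-termini differ and recruit different partners: Klf3 works with the corepressor CtBP, and Klf9, Klf13 and Klf16 with the corepressor Sin3. Several members are switched on by outside signals. Klf9 responds to thyroid hormone and glucocorticoids, Klf15 to glucocorticoids, Klf10 to TGF-β, and Klf2 and Klf4 to blood flow over endothelium through the kinase ERK5 and MEF2 factors.

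The astrocyte label of the IP held up on astrocyte and neuronal markers. CPM is reads on a gene scaled to the total of its library. The 6 astrocyte markers summed to between 86904 and 98546 CPM in the 8 IP libraries. They summed to between 5311 and 6199 CPM in the 8 INPUT libraries. The 6 neuronal markers summed to between 337 and 553 CPM in IP and between 9734 and 11399.5 CPM in INPUT. Endothelial, microglial and oligodendrocyte sums were also lower in IP. Mural sums were not: 6 markers gave 151 to 201 CPM in naïve IP and 114 to 138 CPM in naïve INPUT. In stressed mice the mural sums overlapped, at 126 to 162 CPM in IP and 110 to 141 CPM in INPUT. By the test given below, 1 mural marker was higher in IP and 4 lower in either condition. For oligodendrocyte markers these numbers were 1 and 5. Library depth ran from 16392876 to 25814364 reads on genes, at which 3 reads were at most 0.183 CPM. Naïve IP replicate 11 stood on the side of the stressed libraries for Klf9 and Klf15, and naïve INPUT replicate 14 did so for Klf15. For Klf9, naïve INPUT replicate 14 lay above the other naïve INPUT libraries and below all stress INPUT libraries. The stress differences of Klf9, Klf10, Klf13 and Klf15 in both fractions, and of Klf4 in IP, are given with and without these libraries. Naïve IP replicate 2 also stood apart, with 125 CPM over 4 choroid plexus markers against at most 9.50 CPM in the other IP libraries. Naïve INPUT replicate 3 read 16.7 CPM over these markers, against at most 5.30 CPM in the other INPUT libraries. The stress differences are not given separately without either library.

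Klf9 and Klf15, the glucocorticoid-responsive members, stood alike across libraries, and the 250 bases before their transcription starts are shown here because motifs shared by members were looked for there. They come from RefSeq promoters on GRCm38.p6, whose table held 8 of the 10 members and neither Klf10 nor Klf16. The Klf9 stretch is chr19:23140976-23141225 on the plus strand, 59.6% G or C, with capitals marking the AP-1-like letters TGANTCA, where N is any base. The Klf15 stretch is chr6:90462326-90462575 on the plus strand, 72.0% G or C, with capitals marking the E-box letters CACGTG.
Klf9: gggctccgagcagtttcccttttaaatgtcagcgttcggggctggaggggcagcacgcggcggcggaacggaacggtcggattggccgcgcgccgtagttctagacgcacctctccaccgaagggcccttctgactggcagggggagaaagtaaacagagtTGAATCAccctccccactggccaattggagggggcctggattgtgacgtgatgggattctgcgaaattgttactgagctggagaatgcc
Klf15: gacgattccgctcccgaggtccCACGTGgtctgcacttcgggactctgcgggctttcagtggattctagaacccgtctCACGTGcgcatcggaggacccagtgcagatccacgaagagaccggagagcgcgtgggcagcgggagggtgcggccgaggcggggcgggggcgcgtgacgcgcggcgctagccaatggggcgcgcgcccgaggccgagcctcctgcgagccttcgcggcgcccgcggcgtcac
Motifs were searched on both strands of the 250 bases. The AP-1-like letters occurred once in Klf9, as TGAATCA, beginning 89 bases before the start. They occurred in no other of the 8 members and in 6.75% of all promoters in the table. Because any middle base was allowed, these letters are looser than an AP-1 site, in Klf9 and in the share of promoters alike. The E-box letters began 228 and 172 bases before the start of Klf15, and they occurred also in Klf4 and Klf6 and in 6.02% of all promoters. The palindromic glucocorticoid receptor letters, GNACA and TGTNC set 3 bases apart, occurred in none of the 8 stretches and in 0.387% of all promoters, which says only that these letters were not in this window. GC box letters GGGCGG, which the family itself binds, occurred in 7 of the 8 members against 32.7% of all promoters; Klf9 was the member without them. CACCC box letters CCACCC were found in Klf2, Klf3, Klf7 and Klf13, and in 28.1% of all promoters. The letters TGACG, which make up part of the cyclic AMP response element, were present in 5 of the 8 members, Klf9 and Klf15 included, and in 17.8% of all promoters. MEF2-like letters, CTA and TAG with any 4 bases between them, were found in Klf2 alone among the 8 members and in 3.20% of all promoters.

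The levels of the members spanned a wide range in astrocyte ribosomes. Per length (CPM per kilobase of GENCODE exon, written RPKM), Klf9 stood first in all 4 groups, at 70.9 ± 14.1 RPKM in naïve IP, 91.6 ± 8.08 in stress IP, 83.2 ± 6.97 in naïve INPUT and 104 ± 4.87 in stress INPUT (mean ± SD, n = 4 each). Klf15 came next in IP, at 33.4 ± 7.83 RPKM in naïve IP and 46.5 ± 2.32 RPKM in stress IP, and its libraries did not overlap those of Klf9 above or Klf6 below. In naïve IP the order went on with Klf6 (8.88 ± 0.532 RPKM), Klf13 (8.69 ± 2.06), Klf3 (3.93 ± 0.234), Klf16 (3.19 ± 0.213), Klf10 (1.34 ± 0.187), Klf7 (1.11 ± 0.153), Klf4 (0.401 ± 0.150) and Klf2 (0.306 ± 0.145). In that order the neighbours Klf6 and Klf13, Klf10 and Klf7, and Klf4 and Klf2 overlapped between libraries. The order differed in naïve INPUT, where Klf13 (29.0 ± 2.86 RPKM) and Klf6 (24.0 ± 3.53) followed Klf9 and overlapped each other, and Klf15 (8.90 ± 3.05) stood sixth, overlapping Klf10 (12.0 ± 3.55).

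**Figure D1:**
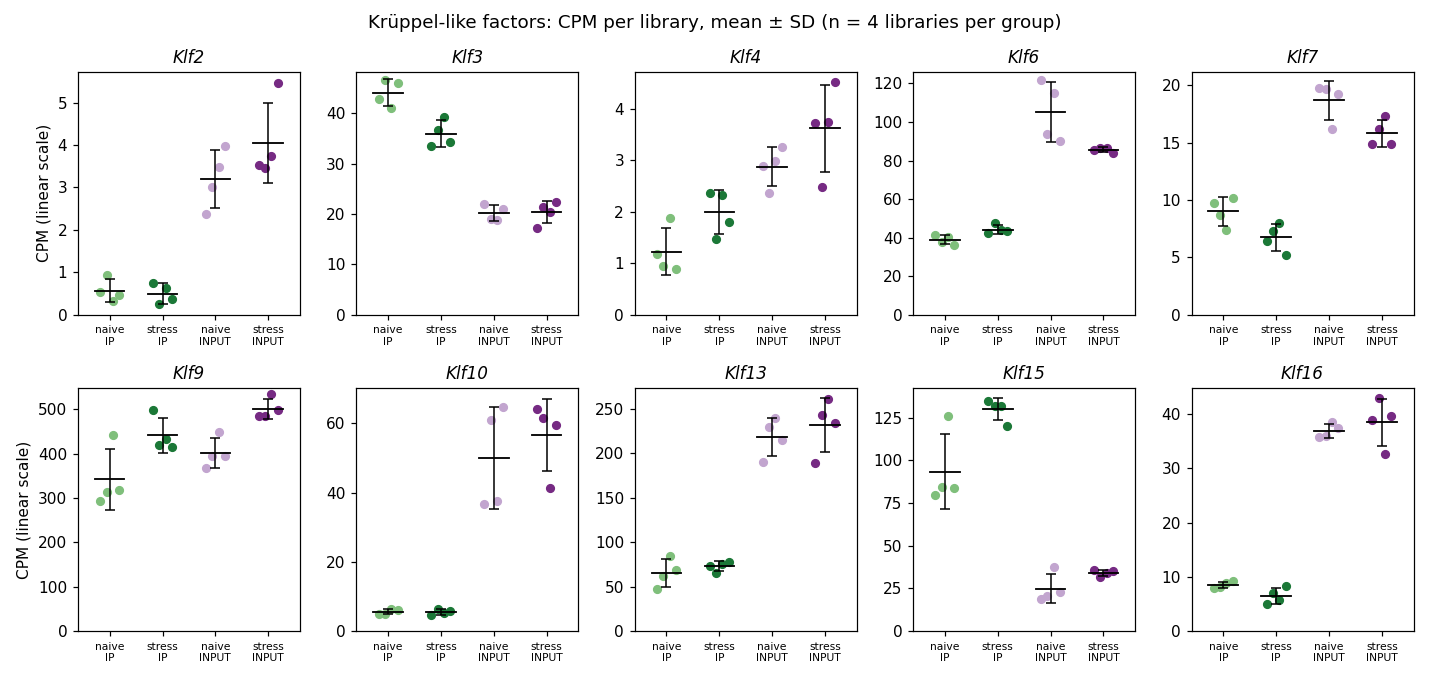
CPM of each of the 10 members (vertical axes, linear from 0) in every library of the 4 groups; points are libraries, horizontal lines are means and bars are SD (n = 4). Klf3 and Klf15 lay higher in IP than in INPUT, the 8 other members had lower means in IP, and 1 naïve IP library lay at the level of stress IP for Klf9 and Klf15.

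The comparison of IP with INPUT asked which members took a larger or smaller share of RNA on astrocyte ribosomes than of total tissue RNA. By limma on log2(CPM + 0.1) with Benjamini-Hochberg adjustment over all genes tested, all 10 members passed an adjusted p of 0.05 in naïve mice, 2 higher and 8 lower in IP. Among 13339 genes tested 23.7% passed higher and 64.0% passed lower, so the members' split was near that of all genes. In stressed mice the same 2 and 8 members passed, against 23.6% of 13333 genes higher and 62.5% lower. The median gene stood at -0.64 on this log2 scale in naïve mice and -0.63 in stressed mice, and the median member at -1.32 and -1.09. The 10 most abundant genes of each library took 18.1% to 19.6% of IP reads and 3.65% to 3.92% of INPUT reads. Their part in the shift of the median was not tested. In bulk RNA a smaller share of cells of a type and less RNA per cell cannot be told apart. INPUT was not selected for ribosomes, so the amount of an RNA in astrocytes and its loading on ribosomes cannot be told apart either.

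Klf15, a regulator of amino acid and glucose metabolism in liver and muscle, was the most IP-enriched member. Its naïve IP libraries read 79.6, 84.2, 126 and 83.6 CPM (replicates 2, 8, 11 and 13), and its naïve INPUT libraries 19.0, 20.4, 37.4 and 22.6 CPM (replicates 3, 7, 14 and 16). The fractions did not overlap, and the IP minus INPUT difference was 1.93 ± 0.19 log2 units (SE; 3.82-fold; limma adjusted p = 4.2e-07). After stress the difference was 1.93 ± 0.07 (limma adjusted p = 2.3e-11).

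Klf3, a CtBP-dependent repressor, was the other member above INPUT. It read 42.9, 46.6, 41.1 and 46.1 CPM in naïve IP and between 18.9 and 22.1 CPM in naïve INPUT, again without overlap. The difference was 1.12 ± 0.08 log2 units in naïve mice (limma adjusted p = 7.7e-09) and 0.82 ± 0.10 in stressed mice (limma adjusted p = 3.8e-06).

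Klf9 was nearly level between the fractions in CPM, although it was the most abundant member in both. Naïve IP libraries read 294, 313, 442 and 317 CPM against 368, 393, 447 and 394 CPM in naïve INPUT, and these groups overlapped. The difference was -0.25 ± 0.11 log2 units in naïve mice (limma adjusted p = 0.047) and -0.19 ± 0.07 in stressed mice (limma adjusted p = 0.024). Against the median gene Klf9 lay 0.39 log2 units higher in IP in naïve mice, and with libraries rescaled by the median ratio of genes its difference was 0.39 (limma adjusted p = 0.011), of opposite sign; with quantile normalization it was 0.01 (limma adjusted p = 0.92). The direction for Klf9 therefore depended on the scaling. In naïve mice its call was also lost on leaving out naïve IP replicate 2, 8 or 13 or naïve INPUT replicate 7, 14 or 16 (limma adjusted p up to 0.15), and in stressed mice on leaving out stress IP replicate 5, 6 or 15 or stress INPUT replicate 10 (up to 0.075).

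Klf10, an early gene of TGF-β signalling, was the least represented member in IP relative to INPUT. It read 4.94, 4.97, 6.50 and 6.04 CPM in naïve IP and 36.8, 60.9, 37.7 and 64.7 CPM in naïve INPUT. Its difference was -3.09 ± 0.18 log2 units in naïve mice (limma adjusted p = 1.2e-09) and -3.34 ± 0.15 in stressed mice (limma adjusted p = 3.0e-10). The Sin3-binding members Klf16 and Klf13 were also lower in IP, by -2.10 ± 0.08 (limma adjusted p = 1.3e-11) and -1.77 ± 0.14 log2 units (limma adjusted p = 3.3e-08) in naïve mice. Klf16 read 7.98 to 9.18 CPM in naïve IP and 35.8 to 38.5 CPM in naïve INPUT, and Klf13 read 46.9 to 84.4 CPM and 190.1 to 239 CPM, with no overlap for either gene. In stressed mice the difference was -2.57 ± 0.15 for Klf16 and -1.66 ± 0.09 for Klf13, again past the threshold.

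Klf6 and Klf7, closely related activators linked to axon growth in neurons, were lower in IP. Klf6 read 36.4 to 41.4 CPM in naïve IP and 90.4 to 122 CPM in naïve INPUT (-1.42 ± 0.09 log2 units, limma adjusted p = 4.9e-09). Klf7 read 7.40 to 10.2 CPM in naïve IP and 16.2 to 19.8 CPM in naïve INPUT (-1.05 ± 0.12 log2 units, limma adjusted p = 1.2e-06). After stress the IP minus INPUT difference was -0.95 ± 0.06 for Klf6 and -1.23 ± 0.14 for Klf7, both past the threshold.

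Klf2 and Klf4, the flow-responsive members of endothelium, had the lowest CPM of the 10 members in both fractions. Per length Klf4 was lowest in INPUT, while Klf2 overlapped Klf3 in naïve INPUT (1.74 ± 0.369 against 1.80 ± 0.140 RPKM) and stood above it in mean in stress INPUT (2.19 ± 0.513 against 1.81 ± 0.198 RPKM). Klf2 read 0.313 to 0.940 CPM in naïve IP (8 to 21 reads per library) and 2.37 to 3.97 CPM in naïve INPUT. Its difference was -2.37 ± 0.29 log2 units in naïve mice (limma adjusted p = 3.5e-06) and -2.85 ± 0.31 in stressed mice (limma adjusted p = 1.9e-06), and the constant of 0.1 CPM understates a change at such levels. Klf4 read 0.891 to 1.88 CPM in naïve IP and 2.35 to 3.25 CPM in naïve INPUT (-1.22 ± 0.24 log2 units, limma adjusted p = 3.0e-04). With median-ratio rescaling this difference of Klf4 was -0.61 (limma adjusted p = 0.034), and with quantile normalization it was -0.06 (limma adjusted p = 0.80) and no longer passed. In stressed mice the difference of Klf4 was -0.82 ± 0.23 (limma adjusted p = 0.0045), and it passed neither with median-ratio rescaling (-0.22, limma adjusted p = 0.38) nor with quantile normalization (0.25, limma adjusted p = 0.30). Beside these genes, 7 endothelial markers summed to between 11.9 and 20.6 CPM in IP and between 60.7 and 109.6 CPM in INPUT, and none of the 7 was at 0 throughout a group; their part in the result was not tested.

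**Figure D2:**
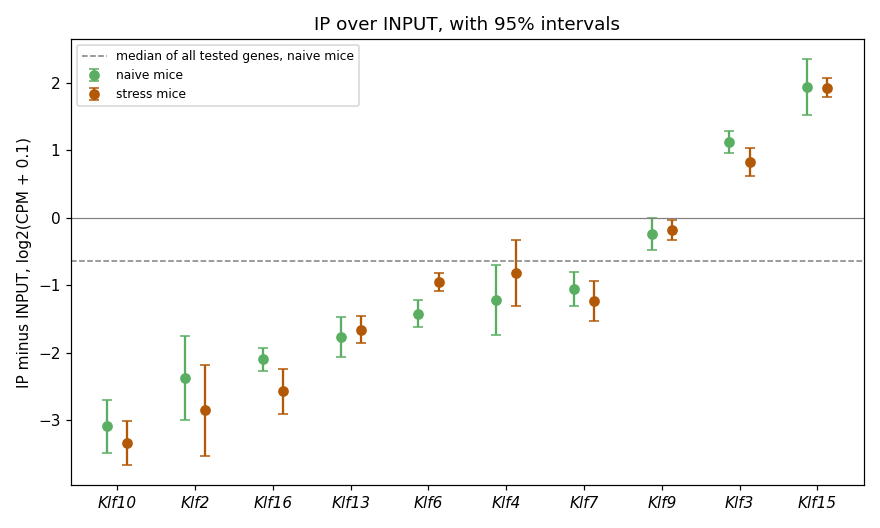
IP minus INPUT difference of each member on the log2(CPM + 0.1) scale (vertical axis), in naïve and stressed mice, with 95% intervals from limma; the dashed line is the median of all genes tested in naïve mice, at -0.64. Klf15 and Klf3 lay above 0 in both conditions, Klf9 lay just under 0 and above the median gene, and Klf10 was lowest.

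The stress comparison in IP asked how the members differed in astrocyte ribosomes after the swim. No member passed the adjusted threshold among 9 tested (Klf2 had a mean below 1 CPM), against 55 of 12501 genes, or 0.440%. At an unadjusted p of 0.05, 7 of the 9 members passed by limma, 4 higher (Klf4, Klf6, Klf9 and Klf15) and 3 lower (Klf3, Klf7 and Klf16), beside 8.27% of all genes. The groups did not overlap for 2 of the 9 members, Klf3 and Klf6, beside 5.00% of all genes. Because the members were chosen with earlier results of these data known, these counts cannot be read as an excess over all genes. The same holds for the counts in INPUT and for the difference between the 2 stress effects below. The median difference was 0.18 log2 units over the 9 members and -0.0036 over all genes tested.

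In INPUT, likewise, no member passed among 10 tested, against 6 of 13577 genes, or 0.0442%. At an unadjusted p of 0.05, 4 of the 10 members passed by limma, Klf9 and Klf15 higher and Klf6 and Klf7 lower, beside 5.03% of all genes. The groups did not overlap for Klf9 and Klf6, beside 2.87% of all genes. The median difference was 0.14 log2 units over the members.

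Klf9 had higher means after stress in both fractions. Stress IP libraries read 498, 419.6, 432 and 414 CPM (replicates 4, 5, 6 and 15). The mean was 441 ± 38.9 CPM (SD, n = 4) against 342 ± 67.9 CPM in naïve IP, and the groups overlapped through naïve IP replicate 11 at 442 CPM. The stress difference in IP was 0.38 ± 0.11 log2 units (1.30-fold; 95% interval 0.13 to 0.63; limma p = 0.0058, adjusted p = 0.31; exact permutation p = 0.11, two-sided). Stress INPUT libraries read 484, 485, 534 and 498 CPM (replicates 1, 9, 10 and 12), all above the 4 naïve INPUT libraries. Their difference was 0.32 ± 0.06 log2 units (1.25-fold; 95% interval 0.19 to 0.46; limma p = 1.4e-04, adjusted p = 0.11), and its exact permutation p of 0.029, two-sided, is the smallest that 8 libraries allow.

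Klf15 also had higher means after stress in both fractions, with groups that overlapped in each. Stress IP libraries read 135, 132, 132 and 120.3 CPM, with a mean of 129.8 ± 6.48 CPM (SD, n = 4) against 93.3 ± 21.9 CPM in naïve IP. All 4 stress libraries lay above naïve replicates 2, 8 and 13, and naïve IP replicate 11, at 126 CPM, lay among them. The stress difference in IP was 0.50 ± 0.12 log2 units (1.41-fold; 95% interval 0.23 to 0.77; limma p = 0.0017, adjusted p = 0.16; exact permutation p = 0.057, two-sided). Stress INPUT libraries read 35.5, 31.4, 34.2 and 35.1 CPM, above naïve replicates 3, 7 and 16, while naïve INPUT replicate 14, at 37.4 CPM, was the highest of the 8. The difference in INPUT was 0.51 ± 0.16 log2 units (1.42-fold; limma p = 0.0079, adjusted p = 0.66; exact permutation p = 0.14, two-sided).

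Without naïve IP replicate 11, Klf9 and Klf15 passed in IP, at 0.51 ± 0.07 log2 units (limma adjusted p = 0.0035) and 0.65 ± 0.06 (limma adjusted p = 3.2e-04), where 0.976% of 12495 genes passed. Without naïve INPUT replicate 14 both also passed in INPUT, at 0.38 ± 0.05 (limma adjusted p = 0.011) and 0.72 ± 0.08 log2 units (limma adjusted p = 0.0026), where 0.236% of 13585 genes passed. These fits hold 3 naïve libraries against 4, and the libraries left out were chosen after their values were seen. For both genes they gave the largest difference among the 8 fits per fraction that dropped 1 library, and 1 of the 8 passed. The smallest differences in IP were 0.32 for Klf9 and 0.43 for Klf15, with limma adjusted p reaching 0.75 and 0.47 among the 8 fits. In INPUT the smallest were 0.28 for Klf9 and 0.40 for Klf15. The check for a library far from the others of its group, given below, flagged naïve IP replicate 11 for both genes. It flagged naïve INPUT replicate 14 for neither. The mean of the remaining naïve IP libraries was 308 ± 12.6 CPM for Klf9 and 82.5 ± 2.45 CPM for Klf15 (SD, n = 3). Each mouse gave both an IP and an INPUT sample, and the labels do not say whether replicates 11 and 14 came from the same mouse.

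Another 2 glucocorticoid-induced genes, Fkbp5 and Tsc22d3, read higher in these libraries than in the other naïve libraries of their fraction. Fkbp5, which encodes a chaperone that restrains the glucocorticoid receptor, read 39.8 CPM in naïve IP replicate 11, while naïve IP replicates 2, 8 and 13 lay between 5.31 and 8.55 CPM and stress IP between 20.1 and 71.8 CPM. In naïve INPUT replicate 14 it read 49.3 CPM, and in naïve INPUT replicates 3, 7 and 16 between 22.5 and 27.1 CPM. Tsc22d3, which encodes the leucine zipper protein GILZ, read 442 CPM in naïve IP replicate 11 against 195 to 282 CPM in the others, below the 529 to 724 CPM of stress IP. In naïve INPUT replicate 14 Tsc22d3 read 113 CPM, above the 68.5 to 80.3 CPM of naïve INPUT replicates 3, 7 and 16 and below the 126 to 145 CPM of stress INPUT. Both genes were chosen after their values were seen.

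**Figure D3:**
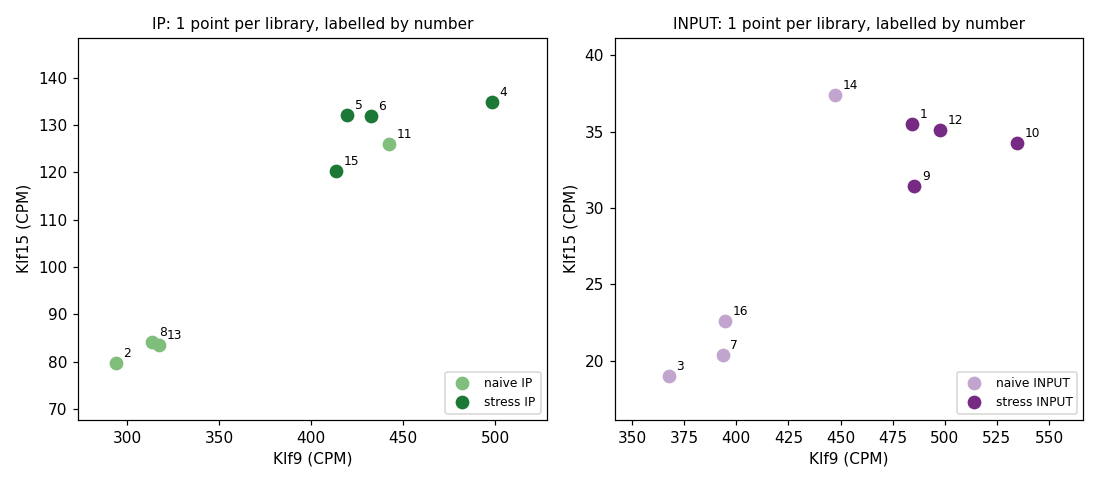
Klf15 (vertical axes, CPM) against Klf9 (horizontal axes, CPM) in the 8 IP libraries (left) and the 8 INPUT libraries (right), 1 point per library with its replicate number; the axes do not start at 0. Naïve IP replicate 11 (442 and 126 CPM) lay among the stress IP libraries, and naïve INPUT replicate 14 had the highest Klf15 of INPUT (37.4 CPM).

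Within a library the ratio of Klf9 to Klf15 CPM varied little in IP, at 3.68 ± 0.122 in naïve and 3.40 ± 0.225 in stressed mice (SD, n = 4), and it was between 12.0 and 19.4 in naïve and 13.6 and 15.6 in stressed INPUT. Outside the members, the 5 genes with the pattern most like that of Klf9 over the 8 IP libraries were Bcl2l1, Fam43a, Rhou, Aff1 and Bcor, with Pearson r of log2(CPM + 0.1) from 0.979 to 0.995. For Klf15 they were Rhou, Mycl, Fam43a, Spsb1 and Slc19a2, with r from 0.984 to 0.992. Bcl2l1, which encodes an inhibitor of apoptosis, read 64.9 CPM in naïve IP replicate 11, 39.7 to 42.3 CPM in naïve IP replicates 2, 8 and 13 and 57.1 to 71.7 CPM in stress IP. All these likeness values share 1 set of libraries and the standing of replicate 11, and describe no more than that.

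Klf6 stood in opposite directions in the 2 fractions. In IP, stress libraries read 42.3, 47.5, 43.8 and 43.3 CPM, all above the naïve libraries at 41.4, 37.7, 40.5 and 36.4 CPM. The difference was 0.18 ± 0.07 log2 units (limma p = 0.021, adjusted p = 0.50; exact permutation p = 0.029, two-sided). In INPUT, stress libraries read 85.4, 86.5, 86.6 and 83.9 CPM, all below the naïve libraries at 122, 93.9, 115 and 90.4 CPM. This difference was -0.29 ± 0.09 log2 units (limma p = 0.0050, adjusted p = 0.57; exact permutation p = 0.029, two-sided). The stress effect in IP minus that in INPUT was 0.47 ± 0.12 log2 units (limma adjusted p = 0.35), which did not pass. Endothelial markers summed to between 71.7 and 109.6 CPM in naïve INPUT and between 60.7 and 83.9 CPM in stress INPUT, and their part in the Klf6 values was not tested.

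Klf3 had a lower mean after stress in IP, a difference that did not pass the adjusted threshold. The stress IP libraries read 33.5, 36.7, 39.4 and 34.3 CPM, all below the naïve libraries. The difference was -0.30 ± 0.07 log2 units (0.815-fold; limma p = 0.0019, adjusted p = 0.17; exact permutation p = 0.029, two-sided). Stress INPUT libraries read 17.3, 21.4, 20.5 and 22.4 CPM and overlapped the naïve ones (0.01 ± 0.10 log2 units). The difference between the 2 stress effects was -0.30 ± 0.12 (limma adjusted p = 0.98).

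Klf7 and Klf16 had lower means after stress in IP, and their groups overlapped. Klf7 read 6.47, 7.30, 7.99 and 5.22 CPM in stress IP (-0.42 ± 0.15 log2 units, limma adjusted p = 0.46), and 14.9 to 17.3 CPM in stress INPUT against 16.2 to 19.8 CPM in naïve INPUT (-0.24 ± 0.09, limma adjusted p = 0.92). The overlap of Klf7 in INPUT came from naïve INPUT replicate 14, as the other naïve libraries read 19.2 to 19.8 CPM. With each library left out in turn, this difference ran from -0.31 to -0.21 (lowest limma adjusted p = 0.35). Klf16 read 4.91, 6.95, 5.80 and 8.32 CPM in stress IP against 7.98 to 9.18 CPM in naïve IP (-0.42 ± 0.15, limma adjusted p = 0.48), and 32.6 to 42.9 CPM in stress INPUT (0.06 ± 0.08, limma adjusted p = 0.99). Both genes were lower in IP than in INPUT, and the neuronal markers, which were lower in IP too, summed to between 429 and 553 CPM in naïve IP and between 337 and 494 CPM in stress IP. The part of neuronal RNA in the values of Klf7 and Klf16 was not tested.

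Klf4 read 2.36, 1.48, 2.33 and 1.81 CPM in stress IP (30 to 53 reads per library), and naïve IP replicate 11, at 1.88 CPM, lay among these libraries. Its difference in IP was 0.70 ± 0.27 log2 units (limma adjusted p = 0.50; exact permutation p = 0.086, two-sided), with a 95% interval from 0.12 to 1.28. Without naïve IP replicate 11 it was 0.91 ± 0.25 (limma adjusted p = 0.18). That was the largest of the 8 IP fits that dropped 1 library, and the smallest was 0.58. In INPUT, Klf4 read 2.48 to 4.52 CPM after stress and 2.35 to 3.25 CPM in naïve mice (0.30 ± 0.19 log2 units, limma adjusted p = 0.99). Klf2, at 0.247 to 0.758 CPM in stress IP, was too low for the IP fit, and in INPUT it read 3.46 to 5.46 CPM after stress (0.33 ± 0.20 log2 units, limma adjusted p = 0.99). Klf13 read 65.5 to 77.3 CPM in stress IP (0.19 ± 0.14 log2 units, limma adjusted p = 0.78) and 189 to 261 CPM in stress INPUT (0.08 ± 0.09, limma adjusted p = 0.99). The 95% interval of Klf13 ran from -0.12 to 0.50 in IP and from -0.12 to 0.28 in INPUT. Without naïve IP replicate 11 the IP difference of Klf13 was 0.32 ± 0.11 (limma adjusted p = 0.42), and without naïve INPUT replicate 14 the INPUT difference was 0.13 ± 0.10 (limma adjusted p = 0.81). Among the 8 fits per fraction that dropped 1 library, the Klf13 difference ran from 0.039 to 0.32 in IP. In INPUT it ran from 0.015 to 0.18, and no such fit passed in either fraction.

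**Figure D4:**
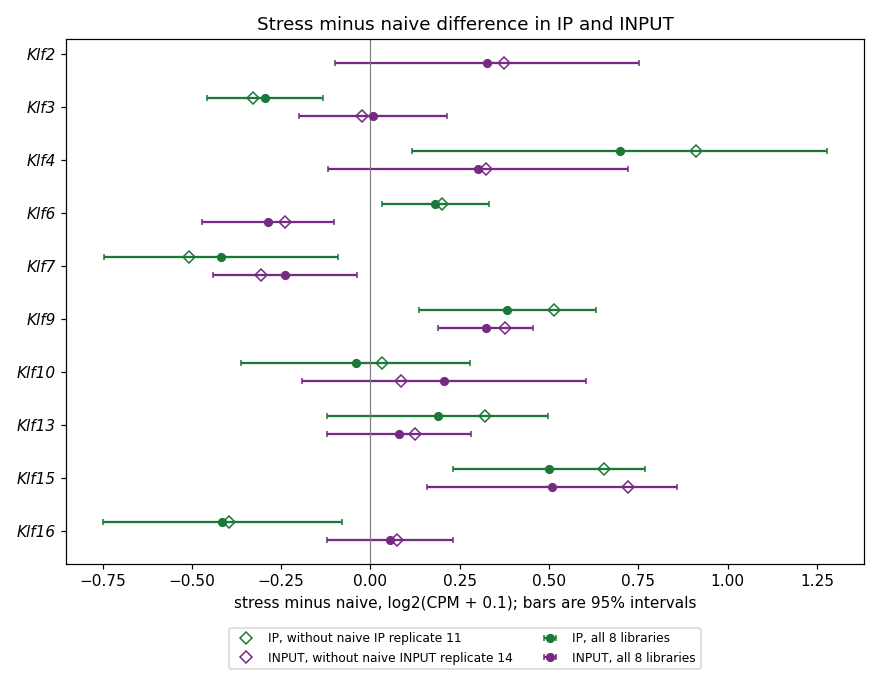
Stress minus naïve difference of each member on the log2(CPM + 0.1) scale (horizontal axis) in IP and INPUT; filled points with bars are limma estimates with 95% intervals over all 8 libraries, and open diamonds are estimates without naïve IP replicate 11 or naïve INPUT replicate 14. Klf9 and Klf15 lay to the right of 0 in both fractions, Klf6 lay on opposite sides of 0, and Klf2 had no estimate in IP.

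Klf10 differed more between libraries of a group than between groups. In INPUT the naïve libraries spread from 36.8 to 64.7 CPM and the stress libraries from 41.2 to 64.2 CPM (0.21 ± 0.18 log2 units, limma adjusted p = 0.99), and without naïve INPUT replicate 14 the difference was 0.086 ± 0.18 (limma adjusted p = 0.94). The 3 lowest libraries, naïve INPUT replicates 3 and 14 and stress INPUT replicate 10, lay between 36.8 and 41.2 CPM, and the 5 others between 59.5 and 64.7 CPM. Those 3 were also the lowest for the summed CPM of 6 immediate early genes, at 268 to 609.5 CPM against 719.6 to 810.4 CPM in the 5 others. In IP, Klf10 read 4.50, 6.41, 5.25 and 5.67 CPM after stress (-0.04 ± 0.15 log2 units, limma adjusted p = 0.96), with a 95% interval from -0.36 to 0.28. Without naïve IP replicate 11 that difference was 0.03 ± 0.16 (limma adjusted p = 0.98).

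**Figure D5:**
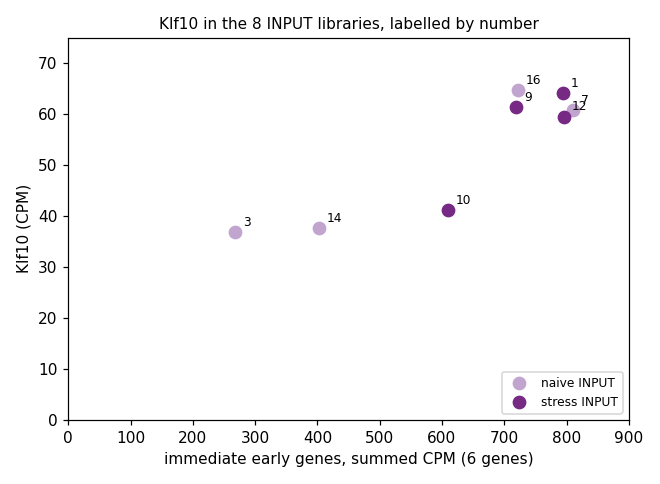
Klf10 (vertical axis, CPM) against the summed CPM of 6 immediate early genes (horizontal axis) in the 8 INPUT libraries, both from 0, 1 point per library with its replicate number. Replicates 3, 14 and 10, at 36.8 to 41.2 CPM of Klf10, had the lowest immediate early sums.

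No member passed the test of the difference between the 2 stress effects, among 10 tested and beside 0.0225% of 13341 genes. At an unadjusted p of 0.05, 3 members passed by limma, Klf6 higher and Klf3 and Klf16 lower in IP relative to INPUT, beside 4.71% of all genes. For Klf9 the difference was 0.06 ± 0.14 log2 units (95% interval -0.24 to 0.36), and for Klf15 it was -0.01 ± 0.23 (95% interval -0.49 to 0.48).

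The other genes of the family and its partners were read from lists of known family members, partners and targets. Of 16 other Klf and Sp genes, 8 were tested for stress in IP and 11 in INPUT, and none passed by limma, with 2 (Klf8 and Sp2) at an unadjusted p of 0.05 in IP and 0 in INPUT. Between fractions in naïve mice, 2 of the 10 tested (Sp1 and Sp2) were higher in IP and 6 lower. Klf8, a repressor related to Klf3, read 1.16 to 2.06 CPM in naïve IP and 0.683 to 0.958 CPM in stress IP without overlap (-0.77 ± 0.24 log2 units, limma adjusted p = 0.34). Sp1, the founding Sp factor, was higher in IP (93.2 ± 8.62 CPM in naïve IP and 41.7 ± 3.78 CPM in naïve INPUT, 1.16 ± 0.08 log2 units). Klf5 (-2.94 ± 0.15), Sp9 (-2.99 ± 0.28), Sp8 (-2.76 ± 0.29), Klf8 (-2.25 ± 0.18) and Klf11 (-1.27 ± 0.15) were lower in IP on the log2 scale in naïve mice, all past the adjusted threshold of limma. Sp8 and Sp9 are factors of interneuron development.

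All 22 cofactors and upstream regulators were tested, and none passed for stress in IP or INPUT by limma, with 1 (Kat2b) at an unadjusted p of 0.05 in IP and 2 (Sin3a and Nr3c1) in INPUT. Between fractions in naïve mice, 8 were higher in IP and 13 lower. The MEF2 factors, which act upstream of Klf2 and Klf4, were lower in IP, with Mef2c at -3.90 ± 0.05, Mef2d at -2.20 ± 0.08 and Mef2a at -2.05 ± 0.05 log2 units. Thra, a thyroid hormone receptor gene, was lower in IP (-1.90 ± 0.08 log2 units), as was Tgfbr2, a receptor of TGF-β (-1.95 ± 0.16), while the acetyltransferase gene Kat2b was higher (1.30 ± 0.08). The glucocorticoid receptor gene Nr3c1, named after its values were seen, read 239 ± 13.1 CPM in naïve IP and 203 ± 11.8 CPM in naïve INPUT (0.24 ± 0.06 log2 units, limma adjusted p = 0.0018). In INPUT its 4 stress libraries (171 to 180.5 CPM) lay below the 4 naïve ones (186 to 213 CPM), with a difference of -0.19 ± 0.05 log2 units (limma adjusted p = 0.49).

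Of 9 genes that these factors are known to regulate in other tissues, 7 were tested for stress in IP and 7 in INPUT, and none passed by limma, with 1 at an unadjusted p of 0.05 in each. That gene was Cdkn1a, a cell cycle inhibitor and a target of Klf4 and Klf6, which read 10.0 to 32.6 CPM in stress IP and 2.69 to 8.54 CPM in naïve IP (1.96 ± 0.39 log2 units, limma adjusted p = 0.063). Between fractions in naïve mice, 3 of the 8 tested were higher in IP and 4 lower. The 3 were Prodh, Slc2a4 and Bcat2. Prodh, the proline catabolic enzyme that Klf15 regulates in liver, read 219 to 242 CPM in naïve IP and 211 to 250.2 CPM in stress IP (0.01 ± 0.06 log2 units, limma adjusted p = 0.97), and stood 3.23 ± 0.07 log2 units above INPUT in naïve mice. Slc2a4, the insulin-responsive glucose transporter gene and a target of Klf15 in muscle, read 2.37 to 5.29 CPM in naïve IP and 1.64 to 3.11 CPM in stress IP (-0.44 ± 0.27 log2 units, limma adjusted p = 0.71). Kcnip2, a potassium channel subunit gene that Klf15 controls in heart, was lower in IP than in INPUT (-3.72 ± 0.09 log2 units in naïve mice), as were Smad7 (-1.75 ± 0.11), an inhibitor of TGF-β signalling, and Nos3 (-2.08 ± 0.23), the endothelial nitric oxide synthase gene.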

How the data were processed

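RNA of IP and INPUT was sequenced in 16 libraries, 4 per group, grouped by title. Per the study's methods and processing notes, reads were aligned by the authors with STAR to the mm10 assembly, and HTSeq counted the uniquely mapped ones on RefSeq genes. The deposited tables hold log2 CPM, scaled to each library's own total, with no gene length and a floor of -6.40. Whole reads were recovered from 100% of the values checked, within 0.05 reads.

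Tests used limma 3.58.1 (lmFit, then eBayes with a variance trend; R 4.3.3) on log2(CPM + 0.1). A gene entered where its mean over the compared libraries exceeded 1 CPM, and calls were made at a Benjamini-Hochberg adjusted p of 0.05. The 2 stress effects were compared over all 16. For members, all 70 ways of labelling 8 libraries were also enumerated (exact permutation test, two-sided), with 0.029 as the lowest p possible. The fit was tried on simulated data with changes larger than the members' stress differences and no library set apart. That trial does not show how the fit treats smaller differences or a library that stands apart. Exon lengths came from GENCODE M21 and promoters from RefSeq (GRCm38.p6). RPKM was computed here.

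Per the study's methods, each mouse's lysate was divided into an IP and an INPUT sample, so the fractions share mice. Mice of both sexes were used, per those methods, but the labels do not give sex, so it entered no test. The labels also do not say which libraries belong together. Tests of IP against INPUT and of the 2 stress effects therefore treated libraries as independent although they come in pairs, and their p-values do not take the pairing into account. The labels give 1 month between tamoxifen and stress, the methods a shorter time. Depth floors cover counting error only. Alternatives were pseudocounts of 1 and 0.01, no filter, means above 5 CPM and above 1 FPKM, median-ratio rescaling, quantile normalization, limma-voom on recovered reads, no variance trend, array weights, all 16 libraries in 1 model, and each library left out. Fits without naïve IP replicate 11 and naïve INPUT replicate 14 together, and limma-voom without either, were chosen after seeing the data. The members and lists were chosen with earlier results of these data known. Named were all members, any gene of the other lists past the threshold for stress, up to 6 more per list by the largest IP over INPUT difference in naïve mice, and the 5 genes most like Klf9 and Klf15.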

Additional observations from a re-analysis of the deposited data

Results flagged for a closer look

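In 4 of the 40 groups of 4 libraries, formed by 10 members and 4 groups, 1 library lay far from the others of its group; chance flags about 2 of 40. Naïve IP replicate 11 was such a library for Klf9, at 442 CPM where replicates 2, 8 and 13 lay between 294 and 317 CPM. The same library stood out for Klf15, at 126 CPM against 79.6 to 84.2 CPM. Stress INPUT replicate 12 lay apart for Klf2, at 5.46 CPM against 3.46 to 3.74 CPM. Naïve INPUT replicate 14 lay apart for Klf7, at 16.2 CPM against 19.2 to 19.8 CPM.

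The stress difference of Klf6 was of opposite sign in the fractions. All stress libraries lay above all naïve ones in IP and below all naïve ones in INPUT. The difference between the 2 effects was 0.47 log2 units, and it did not pass the test over all genes (limma adjusted p = 0.35).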

How the results depend on the processing

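Leaving out naïve IP replicate 11 or naïve INPUT replicate 14 decided whether Klf9 and Klf15 passed for stress. With each library left out in turn, between 0 and 2 members and between 17 and 122 genes passed in IP, 0 to 2 members and 1 to 32 genes in INPUT, and 2 to 28 genes for the difference between the 2 effects. Array weights, which give libraries unequal weight, gave 2 members and 143 genes in IP, 1 member (Klf9) and 50 genes in INPUT, and 19 genes for the difference. In IP, 19 genes passed with no variance trend and 124 with all 16 libraries in 1 model; in INPUT these numbers were 0 and 2. limma-voom gave 2 members and 112 genes without naïve IP replicate 11, and 2 members and 30 genes without naïve INPUT replicate 14. For IP over INPUT, median-ratio rescaling turned Klf9 to 0.39 log2 units in naïve and 0.44 in stressed mice, and quantile normalization gave 0.011 for Klf9 and 0.046 for Cdkn1a in naïve mice and -0.06 (no longer passing) and 0.25 for Klf4 in naïve and stressed mice. Both scalings move the median gene to near 0. Of 1026 alternative values of the members, 974 kept direction and side of the threshold, 11 passed newly, 17 no longer passed, and 20 changed sign without passing in either fit. No paired analysis was possible because the labels number the libraries from 1 to 16 and no number is shared between groups, although each mouse gave both fractions. Klf2, at 5 to 21 reads per IP library, was limited by depth.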
